A study of Homo sapiens with 4 samples.

Results

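The amplified region of K562 cells that carries the BCR and ABL1 genes was examined as all 1 kb tiles of chr22:16850001-24000000 and chr9:133000001-134200000 (hg19). These intervals hold 8350 of 3093772 tiles of the genome, 7150 on chromosome 22 and 1200 on chromosome 9. At least 1 read fell in 6952 of them, here called covered tiles, against 2598309 covered tiles in all. The tiles of 2 Mb on each side of both intervals (8000 tiles, 5902 covered) served as flanks. The intervals were chosen by their high read level in these same libraries, so read levels, their steps and their shares of reads are given as a description, with no test. The chromatin immunoprecipitation sequencing (ChIP-seq) data came from wild-type K562 cells, an established human leukaemia line, of which 2 libraries were precipitated for DPF2 and 2 for histone H3 crotonylated at lysine 14 (H3K14cr). No treatment or second genotype entered the comparison, and no input library was analysed here.

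K562 derives from chronic myeloid leukaemia, in which a translocation between chromosomes 9 and 22 joins the front of BCR to the body of ABL1, a tyrosine kinase that the fusion keeps active. In K562 the fused segment has been copied many times together with neighbouring parts of chromosome 22, and a further fusion of NUP214, a nuclear pore gene that lies beyond ABL1, with XKR3 on chromosome 22 is also known. DPF2 belongs to the BAF chromatin remodelling complex and recognises acyl groups on lysine 14 of histone H3 through its double PHD finger, and crotonylation of that lysine marks active chromatin. In ChIP-seq without an input, a DNA segment present in extra copies gives more reads with any antibody, so a read level can follow copy number, occupancy, or how well reads map. These cannot be told apart from the level alone, while the comparison of neighbouring tiles and of the antibodies within a segment is less exposed to copy number.

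In the gene order of the RefSeq annotation (GRCh38.p14), 88 protein-coding genes lie between XKR3 and BCR on chromosome 22 and 5 between ABL1 and NUP214 on chromosome 9. Those on chromosome 22 include HIRA, a chaperone of histone H3, DGCR8, a microRNA processing factor, and CRKL, an adaptor bound by the BCR-ABL1 kinase. No tile was assigned to a gene, since no annotation of hg19 was used here, and positions below are hg19 coordinates. The sequences that precede BCR and NUP214 are shown because the promoters of these 2 genes lie in front of the fused transcripts. Each is the 250 bases before the first listed start on the + strand (RefSeq, GRCh38.p14), with CG dinucleotides, a motif that reads the same on both strands, in capitals.
BCR: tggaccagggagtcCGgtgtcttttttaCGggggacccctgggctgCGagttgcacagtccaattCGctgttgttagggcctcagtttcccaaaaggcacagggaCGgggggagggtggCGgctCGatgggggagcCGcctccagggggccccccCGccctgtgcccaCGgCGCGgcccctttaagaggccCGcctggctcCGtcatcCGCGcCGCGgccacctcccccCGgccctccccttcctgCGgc
NUP214: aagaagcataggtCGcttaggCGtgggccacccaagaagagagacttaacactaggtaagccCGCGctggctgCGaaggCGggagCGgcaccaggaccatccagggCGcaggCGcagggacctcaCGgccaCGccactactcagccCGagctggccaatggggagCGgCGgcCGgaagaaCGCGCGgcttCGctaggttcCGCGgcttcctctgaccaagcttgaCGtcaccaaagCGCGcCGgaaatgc
The BCR sequence holds 20 CG dinucleotides and the NUP214 sequence 25, and of 35116 promoter sequences of this length 32.4% and 21.6% hold as many or more. The ABL1 sequence holds 33, a count that 8.15% of promoters reach, and the XKR3 sequence holds 3, a count that 77.1% reach. The median promoter holds 11. These sequences were not placed on the tiles, and their counts are given as a description.

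Depth was 7787444 reads in DPF2 replicate 1, 13317496 in DPF2 replicate 2, 10880366 in H3K14cr replicate 1 and 17369133 in H3K14cr replicate 2. Over the tiles of the intervals, replicates 1 and 2 gave a chi-square per degree of freedom of 1.00 for DPF2, the level of sampling noise, and of 0.96 for H3K14cr, slightly below it. The replicates were therefore counted as 1 sample for each antibody. Among tiles with 150 reads or more the values were 0.916 over 133 tiles for DPF2 and 0.913 over 382 tiles for H3K14cr. Between antibodies the value lay between 1.17 and 1.33. Nothing in the labels says that libraries came from separate cultures, so p-values below measure the spread between libraries, which may be technical. An exact permutation test of 2 libraries against 2 cannot go below p = 0.333.

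The intervals took a share of the reads several times their share of the tiles. They held 1.34% and 1.32% of the DPF2 reads and 1.44% and 1.42% of the H3K14cr reads, against 0.268% of the covered tiles. A covered tile of the intervals held a median of 11 and 18 DPF2 reads and of 16 and 25 H3K14cr reads, whereas the median tile elsewhere held 2, 4, 3 and 5 reads in the same order of libraries. Of the 1000 tiles with the highest level in the genome, 455 (45.5%) lay in the intervals, and of the 10000 highest, 1742 (17.4%).

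Read level was divided by the genome median of 20 kb windows in each library, with enriched tiles (defined below) left out, and the pooled profile was cut into segments of even level. The level of a segment is the mean of its pooled windows, and the values of single libraries are means over its covered tiles. Amplified segments, taken as those that overlap the intervals and stand at 4 times the genome median or more, numbered 9 and covered 4.1 Mb, of which 3.54 Mb lay in 8 segments of chromosome 22. In map order they are called A to H on chromosome 22 and I on chromosome 9. Their joint level was 9.54 and 9.31 for DPF2 and 11.1 and 10.9 for H3K14cr, a mean of 10.2. The H3K14cr libraries were higher on this scale, whose unit is the genome median, and that median was itself lower for H3K14cr (0.271 and 0.273 CPM per tile, CPM being reads scaled to the size of the library) than for DPF2 (0.295 and 0.300). Against the pooled flanks, which stood at 2.58, the amplified segments stood at 3.96 times. Most amplified tiles used here (3451 of 4008) lay on chromosome 22, but most flank tiles (3916 of 5832) on chromosome 9. As means over tiles, the chromosome 22 segments stood at 9.62 and the flanks of that interval at 1.41. On chromosome 9 the values were 13.8 and 3.15. The pooled 3.96 is below the contrast within either chromosome. Of the left flank of chromosome 22 only 77 of 2000 tiles were covered, so that side gives little reference. In the flank left of the chromosome 9 interval, chr9:131000001-131140000 at 5.83 and chr9:132340001-132660000 at 5.36 also passed the limit of 4, so such levels were not limited to the intervals.

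Segment H, chr22:23400001-23640000, had the highest level. It stood at 16.4 and 15.9 for DPF2 and 19.9 and 19.2 for H3K14cr, a pooled level of 17.8 (95% Poisson interval 17.7 to 18.0). The highest 20 kb window of the intervals lay within it, at chr22:23560001-23580000, with a level of 27.6. Directly to its right, chr22:23640001-24020000 stood at 0.859, with 0.808 and 0.764 for DPF2 and 1.05 and 0.974 for H3K14cr, close to the genome median. Segment I, chr9:133600001-134160000, followed at 13.7 (13.7 to 13.8), with 13.0 and 12.7 for DPF2 and 14.7 and 14.6 for H3K14cr. Its neighbours chr9:132660001-133600000 and chr9:134160001-136200000 stood at 2.88 and 2.70. The level of segment I was 0.77 of that of segment H, and both neighbours of I lay above the genome median, whereas the right neighbour of H lay near it.

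The other segments of chromosome 22 formed a staircase rather than a plateau. From left to right, A (chr22:19020001-20240000) stood at 9.04, B (chr22:20740001-21020000) at 8.91, C (chr22:21080001-21460000) at 9.59 and D (chr22:21920001-22360000) at 12.9. The level then dropped to 6.12 in E (chr22:22360001-22600000) and 4.01 in F (chr22:22660001-22820000), and was 8.12 in G (chr22:22820001-23400000), next to H. Segment H was 2.19 times G and 1.38 times D, and the highest amplified segment was 4.44 times the lowest. The order of the 9 levels was identical in every library except that A and B, which are close, traded the fifth and sixth place. F lay just inside the limit of 4, and the segments just outside it were chr22:20240001-20320000 at 3.52 and chr22:21760001-21840000 at 3.07. The latter had 48 covered tiles on 80 kb and was uneven, with windows of single libraries from 0.0791 to 9.53, and over its covered tiles the libraries gave 3.34 and 3.39 for DPF2 and 3.99 and 4.13 for H3K14cr. Between C and D, and between A and B, lay stretches with few covered tiles, the longest being chr22:20507001-20613000 with 106 kb and no read; on chromosome 9 the stretch chr9:133074001-133223000 was empty over 149 kb.

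**Figure D1:**
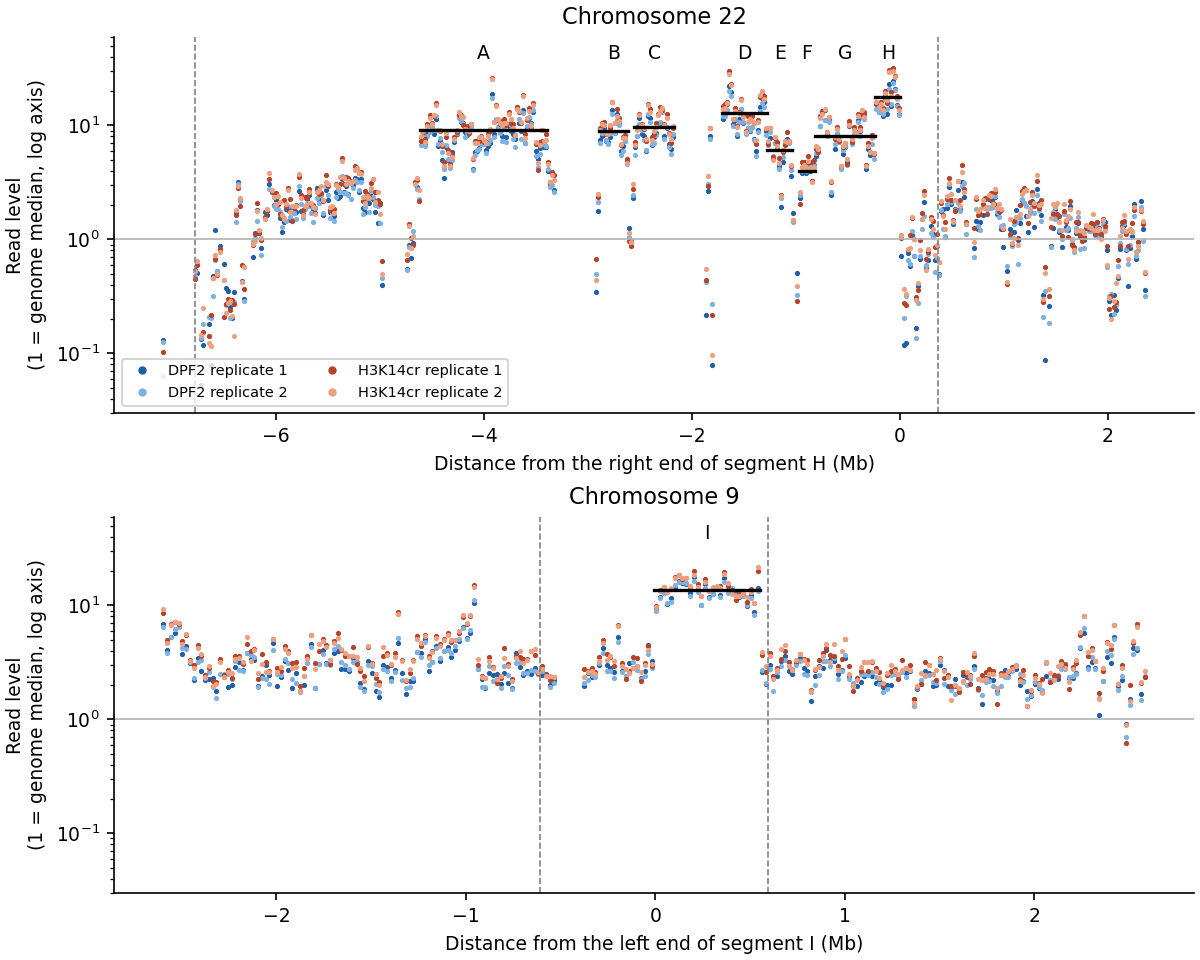
Read level of each library in 20 kb windows (1 = genome median, log axis) against the distance in Mb from the right end of segment H on chromosome 22 and from the left end of segment I on chromosome 9. Black bars are the pooled levels of the amplified segments A to I, dashed lines are the ends of the intervals, and points outside them are the flanks. H is the highest at 17.8, and the segment to its right has a pooled level of 0.859, with single windows on both sides of 1.

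Left of segment A no segment of the chromosome 22 interval reached the limit of 4. The stretch chr22:17540001-18640000 stood at 2.39 and chr22:16540001-17240000, of which 40.9% of tiles were covered, at 0.363. The short stretch chr22:18960001-19020000 next to A stood at 2.84. Near the left end a short block, chr22:17253001-17294000, 41 kb long, stood at 3.03 and 2.99 for DPF2 and 2.85 and 3.05 for H3K14cr. On its left side the level rose 10.5-fold (95% exact binomial interval 7.38 to 15.6) over the nearest 10 kb, with 6 covered tiles to the left, and on its right side, at chr22:17294000, it fell 4.08-fold (3.23 to 5.2). The block stood above its immediate neighbours in all libraries, at a level below the limit of 4. It held 1 enriched tile, chr22:17255001-17256000, called for DPF2.

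The steps at the ends of the segments were placed on the 1 kb grid by likelihood, and 19 of 20 boundaries inside the intervals could be placed. In 7 of them all 4 libraries gave the same kilobase. Over all chromosomes 1.59% of 236766 pairs of adjacent 10 kb blocks differed at least 3-fold, and 5 steps of the intervals did so both over 10 kb and over 100 kb with at least 8 of 10 tiles covered on each side. Since high level chose the intervals, nothing is read from that count.

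The right end of segment H had the largest of these 5 folds over 100 kb. Its step lay at chr22:23633000 in all 4 libraries, and at 100 bp resolution between 23632600 and 23632800. In the 10 kb to the left the libraries held 5.84 and 5.74 CPM per tile for DPF2 and 5.88 and 5.56 for H3K14cr, and in the 10 kb to the right 0.488, 0.541, 0.533 and 0.570 in the same order. The 4 libraries lay together on both sides of the step and did not overlap across it. The fall was 10.6-fold (9.33 to 12) over 10 kb and 26.5-fold over 100 kb. Over 100 kb, 82 of 100 tiles to the right were covered. The 20 kb windows that start at chr22:23660001 and chr22:23680001 stood at only 0.119 to 0.365 in single libraries. The last tile before the step held 254 reads over all libraries and the first tile after it 28.

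On chromosome 9 the left end of segment I lay at chr9:133607000 in every library, and at 100 bp resolution between 133607100 and 133607400. To the left the libraries held 0.732 and 0.698 CPM per tile for DPF2 and 0.781 and 0.668 for H3K14cr, and to the right 3.79, 3.60, 3.51 and 3.48. The rise was 5.02-fold (4.47 to 5.65) over 10 kb and 3.96-fold over 100 kb. The right end lay at chr9:134156000 in 3 libraries and 1 kb away in the other. There the left side held 6.70 and 6.31 CPM per tile for DPF2 and 9.76 and 10.4 for H3K14cr, and the right side 1.01, 1.01, 1.12 and 1.09. The antibodies were furthest apart on the left side, where an H3K14cr-enriched tile, chr9:134152001-134153000, lies just inside the step. The fall of 8.05-fold (7.35 to 8.83) over 10 kb includes that site, and over 100 kb it was 4.43-fold.

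The left end of segment A, at chr22:19023000 in all libraries and at 19022900 in each of them at 100 bp resolution, had the largest fold over 10 kb of these 5 steps. The left side held 0.185 and 0.1 CPM per tile for DPF2 and 0.174 and 0.179 for H3K14cr, and the right side 3.17, 2.53, 2.51 and 2.81, a rise of 17.3-fold (13.6 to 22.3). Levels were higher again further to the left, so that over 100 kb the rise was only 3.90-fold. The left end of segment B, at chr22:20732000, rose 7.18-fold (5.53 to 9.44), but only 29 of 100 tiles to its left were covered.

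**Figure D2:**
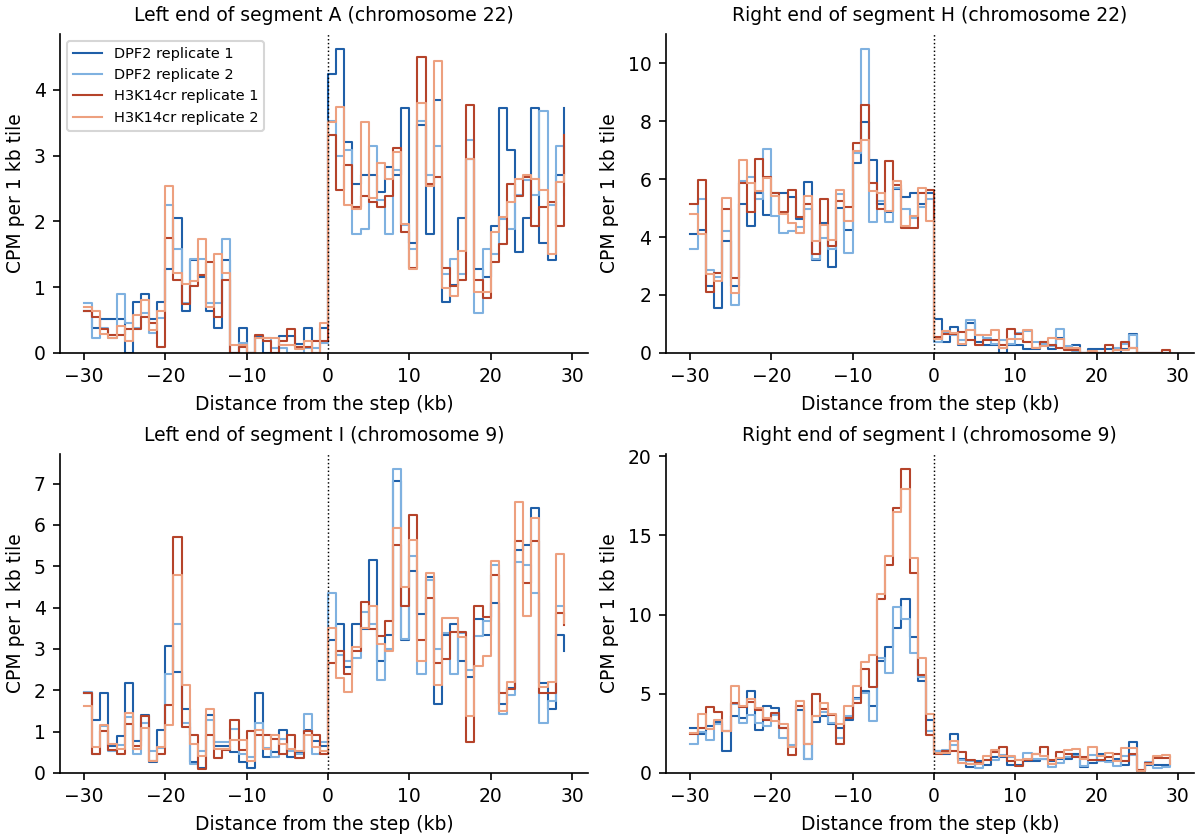
CPM per 1 kb tile of each library within 30 kb of 4 steps, with the distance in kb from the step on the horizontal axis. In each panel all 4 libraries change at the dotted line, and near the right end of segment I the H3K14cr libraries rise above the DPF2 libraries inside the amplified side.

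At the ends of the intervals no such step was seen on chromosome 9. The tiles just inside the start, chr9:133000001-133001000, and just outside it, chr9:132999001-133000000, held 54 and 57 reads over the 4 libraries, and those at the end, chr9:134199001-134200000 and chr9:134200001-134201000, held 39 and 46. On chromosome 22 the first tile inside, chr22:16850001-16851000, held 26 reads and the tile outside it 1, where 2 of 10 neighbouring tiles were covered, and the tiles at the end, chr22:23999001-24000000 and chr22:24000001-24001000, held 16 and 13.

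Against their own surroundings, sites of both antibodies were found within the intervals. A tile was called enriched when its reads exceeded the larger of the genome mean and the mean of the 20 surrounding tiles by a fold of at least 3, with a one-sided Poisson p of at most 0.001 after Benjamini-Hochberg adjustment over all tiles, in both libraries of the antibody. For DPF2, 37 tiles (0.532% of the covered tiles) were called, against 0.225% of all covered tiles. For H3K14cr, 67 tiles (0.964%) were called, against 0.426%. The flanks gave 0.373% for DPF2 and 1.07% for H3K14cr, so for H3K14cr the share in the intervals was above the genome but not above the flanks. The shares moved when reads were removed. When the reads of the intervals were thinned at random to the level of the genome median, 8 tiles (0.117%) were called for DPF2, beside 0.225% of all covered tiles, and 32 (0.467%) for H3K14cr, beside 0.425%. The DPF2 share was then below the background and the H3K14cr share near it. The genome median (0.295 and 0.300 CPM per tile for DPF2, 0.271 and 0.273 for H3K14cr) lies below the genome mean. Covered tiles outside the intervals had a mean of 0.38 CPM in each library. After thinning the genome mean can thus replace the surroundings as background and lower the fold. The parts of depth and of this floor cannot be told apart. In the amplified segments, thinning took DPF2 from 24 tiles to 0 and H3K14cr from 45 to 16. With the surrounding 50 kb as background, 60 and 109 tiles (0.863% and 1.57%) were called, against 0.293% and 0.558% of all covered tiles. With the DPF2 replicate 1 library left out 68 tiles were called for DPF2, and with the DPF2 replicate 2 library left out 57, since a tile then needs to pass in only 1 library.

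Tiles called for DPF2 were largely called for H3K14cr too, as they were over the whole genome. Of the 37 DPF2 tiles, 27 were also enriched for H3K14cr, which is 73.0% (95% exact binomial interval 55.9 to 86.2), beside 74.7% over all tiles of the genome. Of the 67 H3K14cr tiles the shared ones are 40.3%, beside 39.4% over all tiles. Over the tiles of the intervals the Spearman correlation of reads was 0.928 to 0.953 between libraries of different antibodies. Between replicates it was 0.937 for DPF2 and 0.957 for H3K14cr. With no input, how far shared calls come from a signal common to both precipitations was not tested. Of the 10 DPF2 tiles with no H3K14cr call, 5 touched an H3K14cr tile, so that 32 of 37 (86.5%) lay in or beside one, against 81.9% over all tiles. Most called regions were a lone tile, but the width of a site cannot be read from the calls. A broad site raises the mean of the surrounding tiles with which each of its tiles is compared. In segment I the H3K14cr tile chr9:134152001-134153000 held 19.2 and 17.9 CPM for H3K14cr. The tile to its left held 16.7 and 16.5 CPM and the tile to its right 12.6 and 13.6 CPM, both without a call. The DPF2 tiles formed 36 regions, 35 of them a lone tile, and the H3K14cr tiles 53 regions, 40 of them a lone tile, the widest being chr22:19928001-19931000 in segment A. Median spacing on chromosome 22 was 124 kb for DPF2 and 75 kb for H3K14cr.

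Sites in amplified segments had more reads but lower folds. The 24 DPF2 tiles there had a median of 10.4 CPM and a median fold of 3.63, and the 13 outside had 3.48 CPM and a fold of 5.18. For H3K14cr the 45 tiles in amplified segments had a median of 12.4 CPM and a fold of 3.76, and the 22 outside had 3.69 CPM and a fold of 4.47. A tile with more reads passes the Poisson test at a lower fold, so the medians of called tiles are a description and the fold was not compared by a test.

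The 10 highest DPF2 folds, ranked by the lower library, were mostly outside the amplified segments. The highest, chr22:21910001-21911000, held 7.32 and 4.96 CPM for DPF2 and 5.97 and 4.72 CPM for H3K14cr, with folds of 12.7 and 9.71 for DPF2 and 10.4 and 7.81 for H3K14cr. It ranked highest for both antibodies, and only 10 of its 20 neighbouring tiles were covered, which lowers its background. The second, chr22:17602001-17603000, held 5.91 and 5.86 CPM for DPF2 but 1.93 and 1.21 CPM for H3K14cr, with DPF2 folds of 8.85 and 8.25. The third, chr22:20286001-20287000, held 9.12 and 7.58 CPM for DPF2 and 8 and 7.66 CPM for H3K14cr, so the antibodies overlapped there. Then followed chr22:20307001-20308000 with folds of 6.56 and 6.73, chr22:18958001-18959000 with 5.56 and 5.50, and chr22:20748001-20749000 in segment B with 5.25 and 5.66. The last of the 10 were chr9:133454001-133455000, chr22:21271001-21272000 in segment C, chr22:18484001-18485000 and chr22:17652001-17653000, with folds between 4.30 and 6.22. Of these 10, only the tiles of segments B and C were amplified.

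For H3K14cr the tile with the highest fold inside an amplified segment was chr22:19929001-19930000 in segment A. It held 22.6 and 20.8 CPM for H3K14cr and 9.25 and 9.16 CPM for DPF2, with folds of 6.81 and 6.32 for H3K14cr and 3.55 and 3.82 for DPF2. After chr22:21910001-21911000, chr22:20307001-20308000 had the next H3K14cr folds, 6.70 and 7.52. Segment B gave chr22:20748001-20749000 with 15 and 16.5 CPM for H3K14cr and 10.8 and 11.4 CPM for DPF2, and H3K14cr folds of 6.09 and 6.87. The antibodies did not overlap at the segment A tile or at the segment B tile, and in each the H3K14cr libraries were the higher. The remaining 6 of the 10 were chr22:20286001-20287000, chr22:18483001-18484000, chr9:133588001-133589000, chr22:21922001-21923000 in segment D, chr22:22862001-22863000 in segment G and chr22:18893001-18894000, with folds between 5.01 and 7.21.

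**Figure D3:**
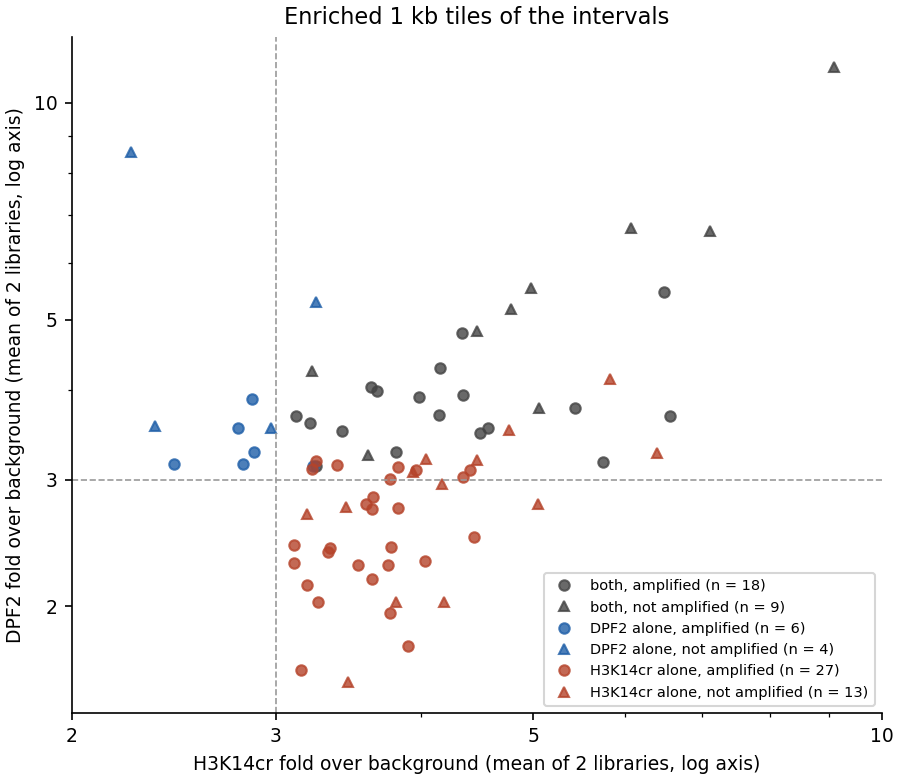
DPF2 fold against H3K14cr fold over background (mean of 2 libraries, log axes) of every enriched tile of the intervals, with dashed lines at a fold of 3. Circles are tiles in amplified segments and triangles tiles outside them, and the highest folds, up to 11.2 for DPF2 and 9.1 for H3K14cr, belong to triangles.

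Segment H, the highest in level, held no enriched tile for either antibody among 240 covered tiles, a count of 0 that allows a share of up to 1.25%. Over all covered tiles the shares were 0.225% for DPF2 and 0.426% for H3K14cr, both below that limit. The count therefore does not set segment H apart from the genome. Its tiles were evenly filled, with a ratio of 2.81 between the 90th and 10th percentile of DPF2 CPM and 2.88 for H3K14cr, close to the 2.84 and 2.97 of segment I and below the 3.97 and 3.93 of segment A. Its tile nearest to a call was chr22:23523001-23524000, with 20.1 and 22.2 CPM for H3K14cr and folds of 2.80 and 3.18, and with 11.8 and 9.39 CPM for DPF2 and folds of 1.90 and 1.54. The H3K14cr libraries were higher there than the DPF2 libraries, without overlap. With the surrounding 50 kb as background this tile was called for H3K14cr, at folds of 3.52 and 3.93, and no tile of segment H for DPF2. Segment I held 1 DPF2 tile (0.179%) and 3 H3K14cr tiles (0.536%) among 560 covered tiles, of which chr9:134000001-134001000 was enriched for both, with 15.9 and 16.0 CPM for DPF2 and 19.0 and 19.6 CPM for H3K14cr. Segment A held 6 DPF2 tiles (0.492%) and 19 H3K14cr tiles (1.56%) among 1220.

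The antibodies were then compared tile by tile, a contrast that the choice of the intervals did not use. Over tiles enriched for either antibody, 77 tiles of the intervals were tested among 12546 in the genome with limma on log2(CPM + 0.5), and 40 differed (adjusted p, by the Benjamini-Hochberg method, of 0.05 or less), 51.9% beside 35.2% of all tiles tested. Of these, 38 were higher in H3K14cr, where 31.0% of all tiles tested were, and 2 were higher in DPF2, where 4.23% were. The median log2 difference, DPF2 minus H3K14cr, was -0.447 over the 77 tiles and -0.332 over all tiles tested. The tiles had entered the test through a call in the antibody where they were high, and 40 of the 77 had been called for H3K14cr alone and 10 for DPF2 alone, so the split follows partly from that entry. Amplified tiles gave 29 calls of 51 and the others 11 of 26; the part of their greater depth was not tested.

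The split also depended on the scaling. With TMM factors the median of all tiles tested moved to -0.0196, and 12 tiles of the intervals were higher in H3K14cr and 9 in DPF2, beside 5.37% and 8.96% of all tiles tested. With median-of-ratios factors it was 12 and 8, beside 5.32% and 8.97%. When each tile was first divided by its surrounding 20 kb, 16 were higher in H3K14cr, beside 16.6% of all tiles tested, and 1 in DPF2, beside 4.05%. Without the H3K14cr replicate 1 library 20 tiles were called, beside 10.6% of all tiles tested, and without the H3K14cr replicate 2 library 23, beside 13.7%, in each case 1 of them higher in DPF2. Without this entry filter, for every tile whose mean reached 10 reads, 86 of 4460 tiles of the intervals were called, 1.93% beside 1.39% of all tiles. Of these, 75 were higher in H3K14cr, beside 1.19% of all tiles, and 11 in DPF2, beside 0.202%.

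The largest difference of all 77 tiles was in favour of DPF2, at chr22:17602001-17603000, outside the amplified segments. Its 46 and 78 DPF2 reads stood against 21 and 21 H3K14cr reads, a ratio of 3.95 (95% exact binomial interval 2.76 to 5.75) in CPM. The log2 difference was 1.65 (SE 0.20, limma adjusted p = 5.45e-10), and the libraries did not overlap. The tile had entered the test through a DPF2 call alone. It kept its call when every tile whose mean reached 10 reads was tested. The DPF2 signal formed a narrow peak, which reached 2.83 and 2.55 CPM in the 200 bp bin just left of the tile centre, where the H3K14cr libraries held 0.276 and 0.403 CPM. The other tile higher in DPF2, chr22:23062001-23063000 in segment G, held 8.60 and 8.11 CPM for DPF2 and 5.79 and 6.22 CPM for H3K14cr, a log2 difference of 0.45 (SE 0.16, limma adjusted p = 0.0254). That tile had entered the test through its DPF2 call, and it did not pass when every tile whose mean reached 10 reads was tested (adjusted p = 0.101) or when tiles were divided by their surroundings (adjusted p = 0.13). Nor did it pass without DPF2 replicate 1 (adjusted p = 0.0636), H3K14cr replicate 1 (adjusted p = 0.205) or H3K14cr replicate 2 (adjusted p = 0.0929).

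Of the 10 largest differences in favour of H3K14cr, 6 lay in segment A, the longest segment, which holds 19 of the 45 H3K14cr tiles of the amplified segments. At chr22:19929001-19930000 the log2 difference was -1.19 (SE 0.16, limma adjusted p = 3.01e-08), and the H3K14cr signal stayed at 3.77 to 5.05 CPM per 200 bp in replicate 1 over the 4 bins around the tile centre, where DPF2 replicate 1 held 1.03 to 2.18. The adjoining tile chr22:19928001-19929000 differed by -1.05 (adjusted p = 4.91e-07). At chr22:20119001-20120000 the H3K14cr libraries held 13.1 and 12.7 CPM and the DPF2 libraries 4.88 and 6.31, a log2 difference of -1.15 (SE 0.16, adjusted p = 5.82e-08). Segment A also held chr22:20105001-20106000 at -0.93, chr22:19434001-19435000 at -0.87 and chr22:20194001-20195000 at -0.84. Segment D held chr22:21922001-21923000 at -0.97 and chr22:21983001-21984000 at -0.84, the latter the tile with the highest level in the intervals, with 27.3 and 25.6 CPM for H3K14cr and 14.1 and 15 for DPF2. The list of 10 was completed by chr22:21272001-21273000 in segment C at -0.87 and chr22:23876001-23877000 at -0.97, a low tile to the right of segment H with 1.28 and 0.451 CPM for DPF2 and 2.02 and 2.07 for H3K14cr. Libraries that did not overlap between antibodies were a condition for this list. Of the 10, chr22:19929001-19930000 and chr22:21922001-21923000 were enriched for both antibodies, and the others had entered the test through an H3K14cr call alone. Tile chr22:23876001-23877000 lost its call under TMM factors (limma adjusted p = 0.0607) and median-of-ratios factors (adjusted p = 0.0613). It also lost it without DPF2 replicate 2 (adjusted p = 0.0821), H3K14cr replicate 1 (adjusted p = 0.0839) or H3K14cr replicate 2 (adjusted p = 0.0837). Divided by its surroundings, chr22:19928001-19929000 was at the threshold (log2 difference -0.60, adjusted p = 0.05 when rounded) and just missed it.

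Adjacent tiles could differ in how far they leaned to H3K14cr and in the call they received. In segment C, chr22:21271001-21272000 held 11.6 and 11.8 CPM for DPF2 and 12.8 and 12.4 for H3K14cr (log2 difference -0.10, adjusted p = 0.629), while the next tile held 5.78 and 6.83 for DPF2 and 13.7 and 10.3 for H3K14cr. In segment A, chr22:19434001-19435000 was enriched for H3K14cr alone and its neighbour chr22:19435001-19436000 for DPF2 alone. The neighbour held 9.25 and 9.09 CPM for DPF2 and 11.2 and 9.33 for H3K14cr, a log2 difference of -0.15 (adjusted p = 0.465), so a call for DPF2 alone did not mean a higher DPF2 level.

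**Figure D4:**
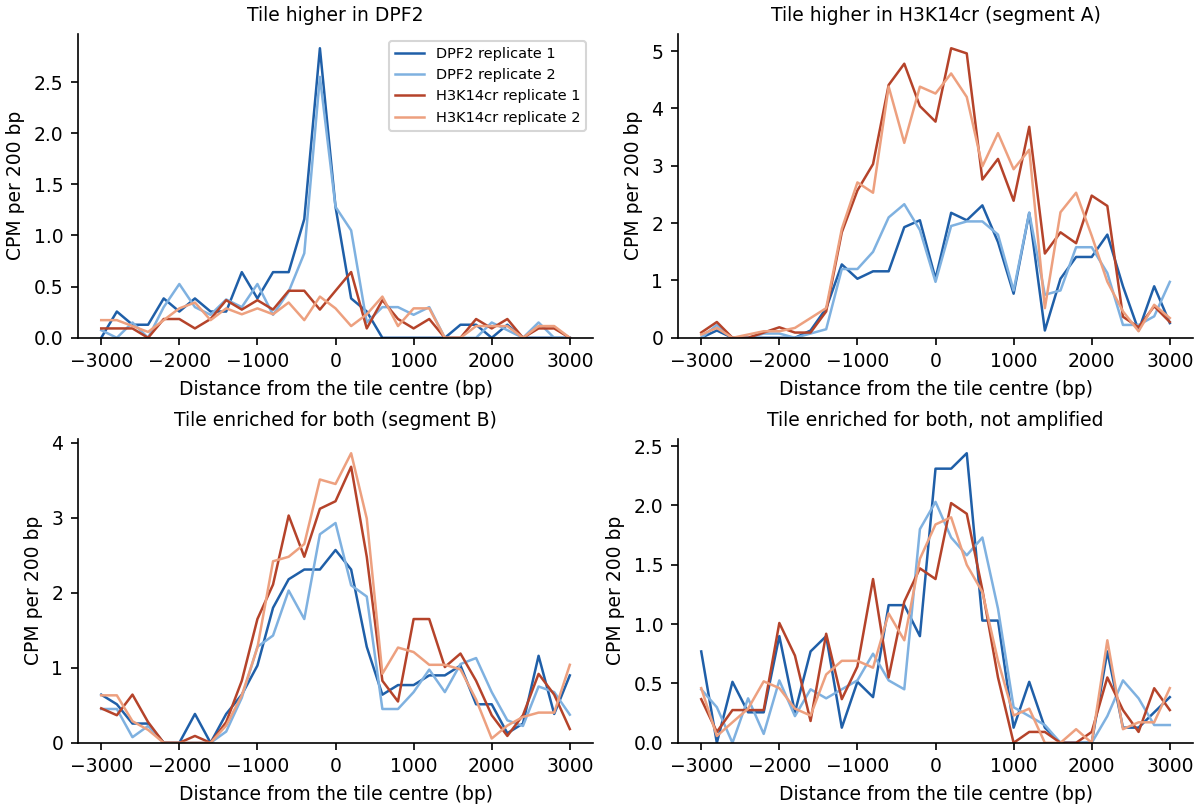
CPM per 200 bp of each library within 3 kb of the centre of 4 tiles. The tile higher in DPF2 (chr22:17602001-17603000) has a DPF2 peak of 2.83 and 2.55 CPM over a low H3K14cr level, the tile of segment A (chr22:19929001-19930000) is higher in H3K14cr over about the whole peak, and at the other 2 tiles (chr22:20748001-20749000 and chr22:20286001-20287000) both antibodies peak at about the same place.

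Outside the enriched tiles the antibodies gave nearly the same level across the amplified segments, with a small excess of H3K14cr. The ratio of DPF2 to H3K14cr in CPM was 0.941 (95% exact binomial interval 0.936 to 0.946) over all amplified segments, 0.936 on chromosome 22 and 0.963 (0.951 to 0.974) in segment I. In the pooled flanks it was 0.911 (0.903 to 0.919). Around the chromosome 22 interval the flanks gave 0.946 (0.927 to 0.965), and around the chromosome 9 interval 0.903 (0.894 to 0.912). The excess was thus also present in the flanks, whereas in the rest of the genome the ratio was 1.01. Within chromosome 22 the segments fell apart. A, B, C, D and H had ratios between 0.906 and 0.935, whereas E and F had 1.02 each and G 1.01. The 4 pairs of a DPF2 and an H3K14cr library gave 0.975 or more in E, F and G and 0.958 or less in A to D and H, so the order held for each pair of libraries. E, F and G were also the amplified segments with the least even tiles: the 90th percentile of DPF2 CPM was 8.79, 15.6 and 11.5 times the 10th, against 2.81 to 4.12 times in the others. With 1 sample for each antibody these ratios have no test, and the intervals cover counting error only.

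**Figure D5:**
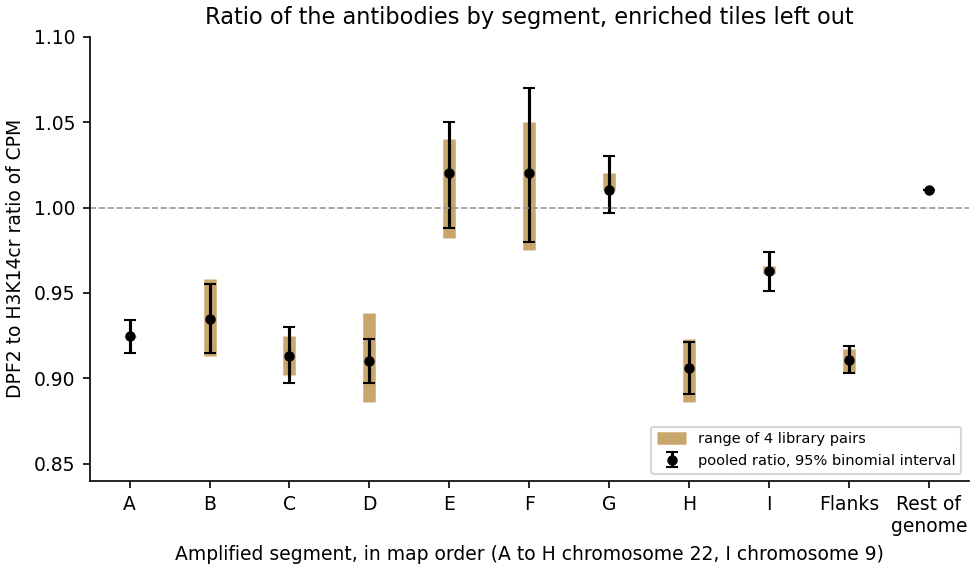
Ratio of DPF2 to H3K14cr CPM in the amplified segments A to I, the flanks and the rest of the genome, with enriched tiles left out. Points are pooled ratios with 95% binomial intervals and bars are the range of the 4 library pairs; E, F and G lie between 1.01 and 1.02, above the other segments of chromosome 22.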

How the data were processed

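Per the labels' protocols, formaldehyde-fixed K562 cells were sonicated and precipitated with either antibody. The submitters' processing notes name Bowtie2 and the builds hg19 and mm9 without versions; how duplicates, mapping filters and binning were handled is not stated there. The deposited signal files list 100 bp bins scaled by the authors to 10000000 reads. Dividing by the value of 1 read gave whole reads, within 0.005, for 100%, 100%, 99.9999% and 100% of the values. Reads were summed in 1 kb tiles by bin midpoint on 24 chromosomes and divided by library size (CPM).

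Segments are change points of log2 level in 20 kb windows (at least 50% covered, penalty 4, at least 2 windows). A segment's level is the mean of its pooled windows, and levels of single libraries are means over covered tiles, so they can differ where coverage is uneven. Steps were placed within 30 kb by Poisson likelihood, and enriched tiles were left out of levels and ratios. Windows and tiles were pooled over libraries, and intervals and floors cover counting error only, since PCR copies of a molecule could not be recognised without molecular identifiers. limma (trend) on log2(CPM + 0.5) was the main test, on enriched tiles whose mean reached 10 reads, and its fold changes understate those of low tiles. As an alternative, edgeR's quasi-likelihood test of those whole reads called 42 tiles of the intervals, 54.5% beside 33.2% of all tiles tested. The caller, the segmentation and limma were checked on simulated data. The test of tiles is genome-wide and only tiles of the intervals are printed.

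Named tiles were the 10 highest folds of each antibody by the lower library, the 10 largest differences in each direction whose libraries do not overlap, and tiles at steps and interval ends. The adjacent pairs of tiles, the short block and segment H's highest tile were picked after their values were seen. The intervals, gene names and rules were chosen with earlier results of these data known. Gene names and sequences came from RefSeq (GRCh38.p14) and all 4 genes looked for matched. Alternatives covered windows, penalty, background, fold, tile size, depth, scaling, pseudocount, filter, test, the replicate block and each library left out. Software was limma 3.58.1 and edgeR 4.0.16 in R 4.3.3, and scipy 1.17.1, numpy 2.4.6 and pandas 2.3.3 in Python 3.11.15; matplotlib 3.10.9 drew the plots.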

Additional observations from a re-analysis of the deposited data

How the results depend on the processing

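The intervals were cut into 22 segments, and into 11 with 50 kb windows, which leave fewer windows to cut; with the other alternatives the number lay between 17 and 31. The mean level of the amplified segments, 10.2, was 3.96 relative to the pooled flanks and between 9.91 and 10.7 elsewhere. The pooled flanks lie mostly on chromosome 9, and their own level is above the genome median.

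DPF2 calls numbered 37 and H3K14cr calls 67. They became 60 and 109 with the surrounding 50 kb, 129 and 189 at a fold of 2, 7 and 11 at a fold of 5, 68 and 111 with tiles of 500 bp, 18 and 33 with tiles of 2 kb, and 8 and 32 after thinning. Summing the libraries gave 66 for DPF2. Leaving out each library gave 57 to 68 DPF2 tiles and 90 to 91 H3K14cr tiles. Apart from the main setting, the 50 kb background and thinning, shares over all tiles are not given. Whether the other counts moved with the whole genome was not tested. The shared part of DPF2 tiles lay between 55.9% and 83.8% throughout. With the background taken over covered tiles only, an alternative chosen after seeing the data, as was the median tile of a window, 33 and 64 tiles were called, all among the original calls.

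The 40 tiles that differed between antibodies became 20 with median-of-ratios factors, 21 with TMM factors, 17 after division by the surrounding 20 kb and 86 when every tile whose mean reached 10 reads was tested, and 20 to 39 with each library left out. A lone library was then assumed to vary like the others. With the replicate number as a block 44 were called, 57.1% beside 34.2% of all tiles tested. Deviations of same-numbered libraries did not move together (r = -0.018 over 12546 tiles), so the numbers give no sign of a pairing. Of 156 values of the 12 named differing tiles under the alternatives, 145 kept direction and call, 11 kept direction alone and 0 reversed. The 5 steps stayed within 1 kb in all 30 values without a library or with 1 antibody.

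The ratio of DPF2 to H3K14cr, 0.941, was 0.930 with enriched tiles kept and lay between 0.935 and 0.946 with each library left out. Scaled by the pooled flanks, which lie mostly on chromosome 9, it was 1.03. By chromosome, the amplified segments had 0.936 and the flanks 0.946 on chromosome 22. On chromosome 9 the values were 0.963 and 0.903. Depth limits calls outside the amplified segments, where the median tile of a library held few reads.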
